A study of Homo sapiens with 4 samples.

Results

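The HOX genes of the 4 clusters were examined in SK-MEL-28 and A375, human melanoma cell lines. Cells of each line were given either siLINC01291, which targets the long intergenic RNA LINC01291, or the control siRNA, siNC. Members were taken by name from the expression table: every listed HOXA, HOXB, HOXC or HOXD gene with a number, the long non-coding RNAs HOTAIR, HOTTIP and HOTAIRM1 and the antisense genes named after a HOX gene or cluster. This rule found 42 of the 18175 listed genes and loci, 32 of them protein-coding and 10 non-coding. GENCODE 29 annotates 39 coding HOX genes, and the other 7 (HOXA7, HOXA9, HOXB1, HOXD1, HOXD10, HOXD11 and HOXD12) are not analysed here, nor is HOTTIP. There were 4 groups of 1 RNA sequencing library: SK-MEL-28 with siLINC01291, SK-MEL-28 with siNC, A375 with siLINC01291 and A375 with siNC. The labels state the culture medium and the siRNAs but no dose, time or number of cultures, and also name a treatment EL without explaining it. Each line is thus represented by 2 libraries that differ in the siRNA, and p-values measure only the spread between these libraries.

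HOX genes code for homeodomain transcription factors and lie in clusters in an order that follows the body axis: genes of low paralog number act towards the head and those of high number towards the tail and the ends of the limbs. Cells of adult tissues and cultured lines often keep a combination of active HOX genes that reflects where in the body they came from, and this combination is held by the opposed Polycomb (repressive) and Trithorax (activating) chromatin complexes. HOX proteins bind short DNA words with a TAAT core, often together with TALE cofactors of the PBX, MEIS and PKNOX families.

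The libraries held 29351240 to 31815336 counts, of which HOX members took 0.0260 and 0.0251% in the siLINC01291 and siNC libraries of SK-MEL-28 and 0.0406% in both A375 libraries. LINC01291 had 454 counts with siLINC01291 against 998 with siNC in SK-MEL-28, and 304 with siLINC01291 against 827 with siNC in A375, so the targeted RNA was lowered and not removed. All 9 melanocyte lineage markers were called higher in SK-MEL-28 in the quasi-likelihood test of edgeR (adjusted p under 0.05), where 36.1% of all genes tested were called higher. Levels are in FPKM, the deposited read level per gene length and library depth, and paired values of a line are those of its siLINC01291 and its siNC library. The summed level of the 9 markers was 1941 and 1623 FPKM in SK-MEL-28 and 134 and 94.7 FPKM in A375. SOX10, which codes for the neural crest transcription factor kept in the melanocyte lineage, reached 80.1 to 147 FPKM in all 4 libraries, whereas TYR and MLANA, which code for a pigment enzyme and a melanosome protein, were below 1 FPKM in A375. The markers DCT and TYRP1 were also below 1 FPKM there. TYR, MLANA, DCT and TYRP1 thus entered the test through SK-MEL-28 alone and had to come out higher. Of 5 keratinocyte markers, 2 had a row: KRT14 was at most 0.0451 FPKM in SK-MEL-28, against 6.16 to 7.32 FPKM in A375, and KRT10 was at 18.0 to 27.7 FPKM in all 4 libraries. LUM was the only 1 of 6 fibroblast markers with a row, at 8.07 and 7.84 FPKM in SK-MEL-28 and 3.74 and 3.25 FPKM in A375; no marker of endothelial cells (3 genes) or leukocytes (4 genes) is analysed here. The part of the lineage state in the HOX differences was not tested.

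Both lines used genes of all 4 clusters, but with different weights. The summed FPKM of the 5 listed HOXD genes was 27.6 (siLINC01291) and 29.0 (siNC) in SK-MEL-28 and 10.5 (siLINC01291) and 10.2 (siNC) in A375. The 9 HOXC genes went the other way, with 21.2 and 19.9 FPKM in SK-MEL-28 and 54.2 and 52.3 FPKM in A375. HOXB genes made up the largest share of the coding HOX signal in every library, 44.3 and 42.1% in SK-MEL-28 and 46.9 and 48.7% in A375, and HOXA genes took 10.0 to 11.6% in all 4. By position, the 12 posterior genes (paralog groups 9 to 13) held 27.2 and 23.7% of the coding signal in SK-MEL-28 and 39.0 and 38.4% in A375. Central genes (groups 4 to 8, 14 genes) held 58.6 and 59.8% in SK-MEL-28 and 43.3 and 42.7% in A375, and the 6 anterior genes (groups 1 to 3) held 14.3 to 19.0% in all libraries. In summed FPKM, HOXB genes were also lower in SK-MEL-28 (48.1 and 44.4, against 71.6 and 73.7 in A375). So were HOXA genes (11.7 and 12.3, against 16.2 and 15.2). Posterior genes separated the lines in sum (29.5 and 25.0, against 59.5 and 58.1) as well as in share. Central genes were nearly level in sum (63.6 and 63.1, against 66.1 and 64.6), so on this scale mainly their share differed. FPKM are scaled by library totals alone. The log2 changes of the tests also use TMM scaling factors (0.953 and 0.934 in SK-MEL-28, 1.08 and 1.04 in A375), which raise SK-MEL-28 relative to A375. The siRNA libraries of a line lay close together. In such bulk libraries, expression in fewer cells and less RNA per cell cannot be told apart.

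**Figure D1:**
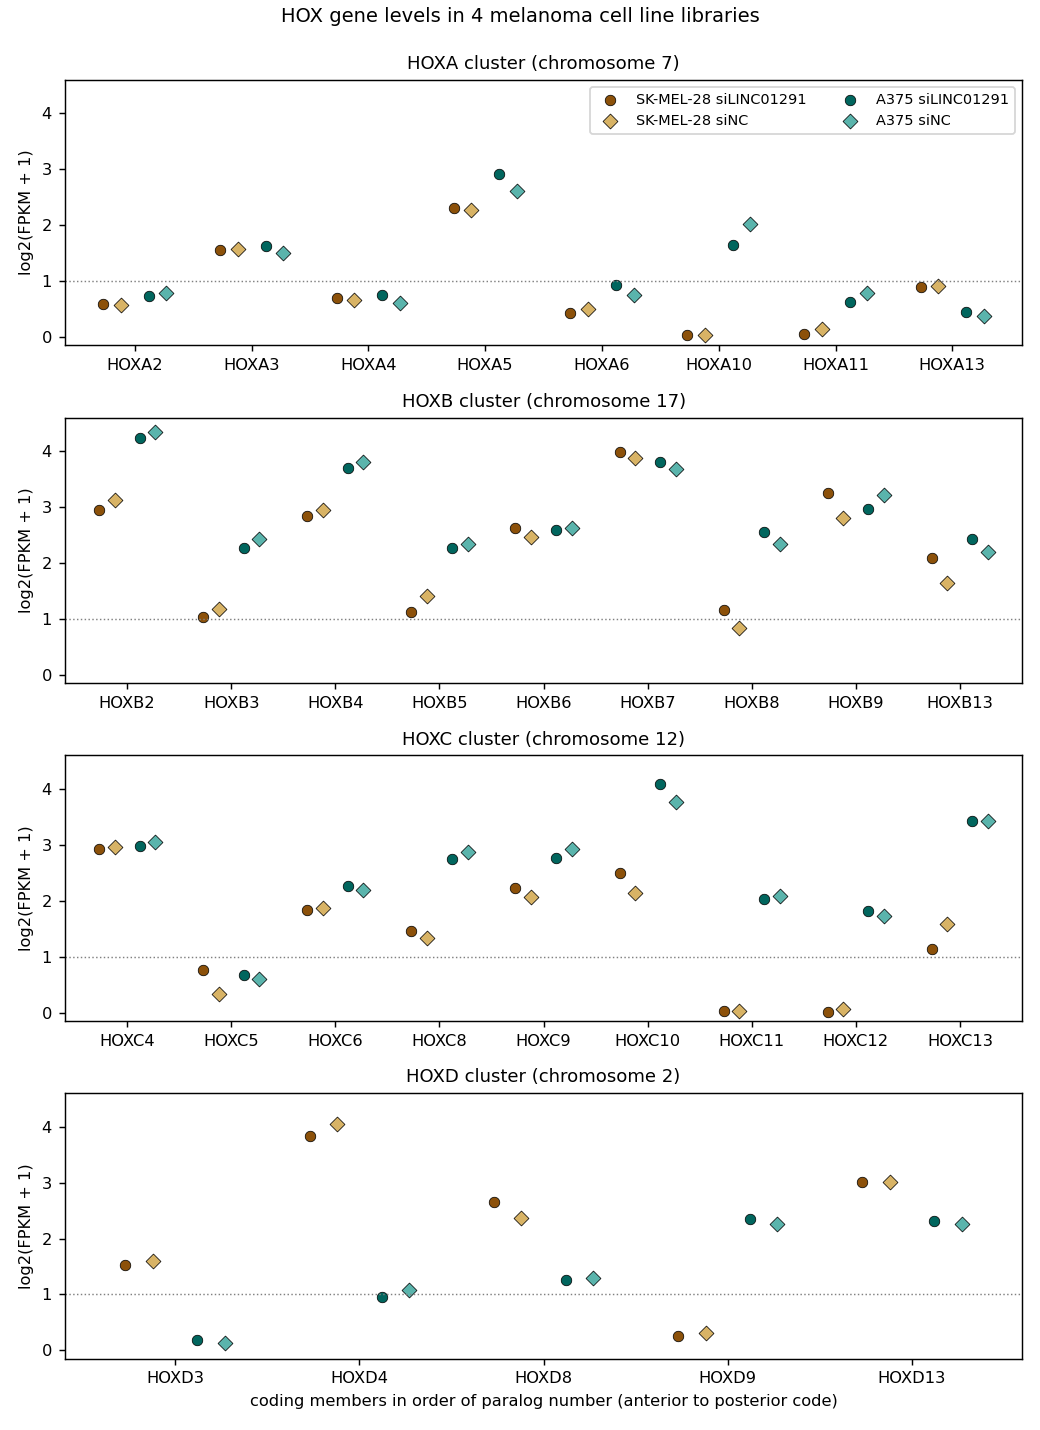
Level of 31 of the 32 coding HOX genes in the 4 libraries, as log2(FPKM + 1), by cluster and in order of paralog number; circles are siLINC01291 and diamonds siNC, brown SK-MEL-28 and green A375, and the dotted line marks 1 FPKM. HOXD3 and HOXD4 stand high in SK-MEL-28 alone, and HOXA10, HOXC11, HOXC12 and HOXD9 in A375 alone.

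Taking an FPKM of at least 1 in both libraries of a line as expressed, 23 of 42 members were expressed in SK-MEL-28 and 29 in A375, with 21 in all 4 libraries. The 5 highest coding members of SK-MEL-28 by mean FPKM were HOXD4 (14.3), HOXB7 (14.3), HOXB9 (7.23), HOXB2 (7.20) and HOXD13 (7.05). The first 2 overlapped in their library values, as did the following 3. In A375 the order was HOXB2 (18.6), HOXC10 (14.3), HOXB4 (12.4), HOXB7 (12.4) and HOXC13 (9.79); HOXB2 and HOXC13 did not overlap with their neighbours in this order, and the values of HOXC10, HOXB4 and HOXB7 formed an overlapping run. Across the 32 coding genes, log2(FPKM + 1) correlated with Pearson r = 0.983 between the SK-MEL-28 libraries and 0.990 between the A375 libraries, and with r = 0.51 between the lines for either siRNA. Genes are not independent replicates, and libraries of a line share the culture background, so these coefficients are a description.

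HOXD4 and HOXD3 were the members with the largest excess in SK-MEL-28. HOXD4 (ENSG00000170166, GENCODE 29 on GRCh38 chr2:176151222-176153226, + strand), a gene of the neck region in vertebrate embryos, measured 13.2 FPKM with siLINC01291 and 15.5 FPKM with siNC in SK-MEL-28, against 0.937 and 1.11 FPKM in A375. HOXD3 (ENSG00000128652, chr2:176136612-176173102, + strand), which in mice patterns the first neck vertebrae, measured 1.88 and 2.02 FPKM in SK-MEL-28, against 0.144 and 0.0960 FPKM in A375. Every SK-MEL-28 value lay above every A375 value for both genes, and HOXD3 was under 1 FPKM in A375. HOXD3 thus entered the test through SK-MEL-28 alone and had to come out higher, and HOXD4 entered mainly through that line. SK-MEL-28 over A375 gave log2 changes of 3.97 for HOXD4 (SE 0.17, Benjamini-Hochberg adjusted p = 4.57e-06, quasi-likelihood test of edgeR, n = 2 libraries per line) and 4.17 for HOXD3 (SE 0.25, adjusted p = 1.64e-05), or 15.7-fold and 18.0-fold. In GENCODE 29, 80.5% of the exonic bases of HOXD4 and 74.1% of those of HOXD3 are shared with other annotated genes, so how reads were divided there is uncertain. RefSeq promoter windows (GRCh38.p14, from 250 bases before to 50 bases after a transcription start) are shown for these 2 genes because they were high together, and for HOXA10 as a gene with the opposite pattern. Capitals mark TAAT on either strand (TAAT or ATTA), with overlapping matches counted; the windows are chr2:176151300-176151599 (+), chr2:176157057-176157356 (+) and chr7:27179812-27180111 (-).
HOXD4: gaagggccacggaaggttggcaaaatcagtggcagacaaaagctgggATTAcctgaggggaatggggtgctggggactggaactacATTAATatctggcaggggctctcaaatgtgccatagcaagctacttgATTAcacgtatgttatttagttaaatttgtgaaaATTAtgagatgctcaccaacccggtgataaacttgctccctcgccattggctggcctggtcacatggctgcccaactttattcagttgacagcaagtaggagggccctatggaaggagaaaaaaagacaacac
HOXD3: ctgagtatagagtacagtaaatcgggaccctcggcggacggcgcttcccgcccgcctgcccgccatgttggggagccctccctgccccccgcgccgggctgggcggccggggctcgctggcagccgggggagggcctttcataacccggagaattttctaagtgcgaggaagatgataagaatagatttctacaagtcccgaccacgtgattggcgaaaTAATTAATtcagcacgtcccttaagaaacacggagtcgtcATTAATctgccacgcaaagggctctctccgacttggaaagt
HOXA10: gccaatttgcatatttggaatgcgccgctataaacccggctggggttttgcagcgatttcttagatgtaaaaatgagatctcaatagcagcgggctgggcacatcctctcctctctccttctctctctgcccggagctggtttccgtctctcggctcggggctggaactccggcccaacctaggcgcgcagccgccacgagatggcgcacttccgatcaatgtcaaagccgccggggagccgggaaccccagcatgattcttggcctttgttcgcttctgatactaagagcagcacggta

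The windows of HOXD4 and HOXD3 each held 5 such words, a number that 7.69% of 35116 promoter windows reach, and that of HOXA10 held 0. At least 1 TAAT or ATTA was present in 50.2% of all windows and in 15 of the 20 windows of the 13 members with an entry. In CG dinucleotides the windows differed, with 4 in that of HOXD4 (75.5% of all windows had at least as many), 25 in that of HOXD3 (32.0%) and 21 in that of HOXA10 (39.5%). A match describes the letters of a window and does not show that a factor binds there.

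The rest of the HOXD cluster was mixed along its length. HOXD8, a central gene, measured 5.33 FPKM with siLINC01291 and 4.19 with siNC in SK-MEL-28 and 1.38 FPKM with siLINC01291 and 1.45 with siNC in A375 (log2 change 1.91, SE 0.17). HOXD13, the terminal gene of the cluster, which is needed for the digits, measured 7.02 and 7.08 FPKM in SK-MEL-28 and 3.97 and 3.77 FPKM in A375 (log2 change 1.03, SE 0.13). Between these 2 genes on the chromosome lies HOXD9 (chr2:176122720-176124937), which measured 0.200 and 0.236 FPKM in SK-MEL-28, against 4.12 and 3.81 FPKM in A375. HOXD9 had a log2 change of -4.01 (SE 0.23, edgeR adjusted p = 1.55e-05). It entered the test through A375 alone and so had to come out lower. Its nearest listed coding neighbours on both sides passed the same test as higher in SK-MEL-28 (edgeR adjusted p = 0.000103 for HOXD8 and 0.000415 for HOXD13). None of the 3 genes had overlapping values between the lines.

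The 5' part of the HOXC cluster held the largest deficit of SK-MEL-28. HOXC11 (ENSG00000123388, chr12:53973126-53977643, + strand) had 2 counts with siLINC01291 and 2 with siNC in SK-MEL-28 and 322 counts with siLINC01291 and 329 with siNC in A375, which is 0.0208 FPKM in each SK-MEL-28 library and 3.09 and 3.25 FPKM in A375. HOXC12 (ENSG00000123407, chr12:53954834-53958956, + strand) had 1 and 4 counts in SK-MEL-28 and 264 and 232 in A375. Between them, HOTAIR (ENSG00000228630, chr12:53962308-53974956, - strand), a long non-coding RNA reported to bind Polycomb proteins, had 0 and 3 counts in SK-MEL-28 and 51 and 38 in A375. All 3 genes of this stretch were at or near the floor of 3 counts per library in SK-MEL-28, while each A375 library held at least 38 counts of each. After scaling, the summed counts were 136-fold lower in SK-MEL-28 for HOXC11 (95% exact binomial interval 52.8 to 500, counting error only), 82.8-fold lower for HOXC12 (35.3 to 256) and 24.8-fold lower for HOTAIR (8.21 to 122). HOXC11 and HOXC12 were called with log2 changes of -7.01 (SE 0.30) and -6.31 (SE 0.37) by edgeR (adjusted p = 4.35e-06 and 1.51e-05). Both entered the test through A375 alone and so had to come out lower. HOTAIR was under 1 FPKM in every library and was not tested.

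On either side of this stretch the lines differed less. HOXC13, the terminal gene, known for its role in hair follicles and nails, measured 1.21 FPKM with siLINC01291 and 1.99 with siNC in SK-MEL-28 and 9.78 FPKM with siLINC01291 and 9.79 with siNC in A375 (log2 change -2.47, SE 0.19, edgeR adjusted p = 5.79e-05). HOXC10, a gene of the lumbar region and hindlimb, measured 4.66 and 3.41 FPKM in SK-MEL-28 and 15.9 and 12.6 FPKM in A375 (log2 change -1.66, SE 0.12, edgeR adjusted p = 3.49e-05). Both genes were expressed in all 4 libraries with no overlap between the lines. Towards the 3' end the difference was uneven. HOXC9, which marks the thoracic spinal cord, and HOXC8, of the brachial to thoracic level, had log2 changes of -0.69 (SE 0.16) and -1.72 (SE 0.16), and HOXC6 of -0.32 (SE 0.13). HOXC8 measured 1.74 and 1.52 FPKM in SK-MEL-28 and 5.70 and 6.36 FPKM in A375. HOXC4 was nearly level, with 6.62 and 6.78 FPKM in SK-MEL-28 and 6.87 and 7.27 FPKM in A375; its log2 change of 0.09 (SE 0.11) did not pass the test and takes a negative sign when libraries are scaled by their totals alone. HOXC8 passed the test (edgeR adjusted p = 0.000129), as did HOXC9 (0.00855), but the call of HOXC9 ended without SK-MEL-28 siNC (edgeR adjusted p = 0.0577), without A375 siNC (0.103) and with DESeq2 (0.0905). HOXC6 did not pass (edgeR adjusted p = 0.0696), although it did with library totals alone (0.0155). HOXC5 was under 1 FPKM in every library (0.253 to 0.696 FPKM), and 59.9% of its exonic bases are shared with other annotated genes.

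In the HOXA cluster, 5 of 9 listed genes were under 1 FPKM in all libraries. HOXA10 (ENSG00000253293, chr7:27170591-27180261, - strand), a gene of the lower trunk known for its role in the uterus, had 3 counts with siLINC01291 and 2 with siNC in SK-MEL-28 and 254 with siLINC01291 and 351 with siNC in A375, or 0.0274 and 0.0182 FPKM in SK-MEL-28 and 2.14 and 3.05 FPKM in A375. Its summed scaled counts were 101-fold lower in SK-MEL-28 (exact binomial interval 43.1 to 312), and its log2 change was -6.60 (SE 0.31, edgeR adjusted p = 6.57e-06). HOXA10 entered the test through A375 alone and so had to come out lower. The adjacent HOXA11, a forearm and uterus gene in mice, had 3 and 8 counts in SK-MEL-28 and 46 and 59 in A375, a 7.97-fold deficit (4.28 to 16.5) at under 1 FPKM throughout. HOXA13, the terminal gene, which is needed for hand and foot formation, ran the other way at 0.858 and 0.870 FPKM in SK-MEL-28 and 0.358 and 0.293 FPKM in A375, 2.97-fold higher in SK-MEL-28 by summed counts (2.36 to 3.77). HOXA10 and HOXA11 thus separated the lines in the same direction and HOXA13 in the opposite, but HOXA11 and HOXA13 stayed under the 1 FPKM that the test required.

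HOXA5 and HOXA3 differed little between the lines. HOXA5, a central gene known from lung development, measured 3.93 FPKM with siLINC01291 and 3.81 with siNC in SK-MEL-28 and 6.50 FPKM with siLINC01291 and 5.09 with siNC in A375 (log2 change -0.41, SE 0.15, edgeR adjusted p = 0.0487). The lines did not overlap, but the call ended with all 4 libraries and siRNA left out of the model (edgeR adjusted p = 0.0917). It also ended without any 1 of the 4 libraries, in fits that left siRNA out too (log2 change -0.25 to -0.56). HOXA3, a gene of the throat region, ranged over 1.84 to 2.07 FPKM with overlapping lines and was not called (log2 change 0.16, SE 0.14, edgeR adjusted p = 0.338, and -0.00429 when scaled by library totals alone). HOXA2, HOXA4 and HOXA6 ranged over 0.344 to 0.902 FPKM.

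HOXB genes were the most widely expressed, with 9 of 9 listed members at 1 FPKM or more in at least 3 libraries. The 3' members were lower in SK-MEL-28. HOXB2, a hindbrain gene, measured 6.73 FPKM with siLINC01291 and 7.68 with siNC in SK-MEL-28 and 17.9 FPKM with siLINC01291 and 19.4 with siNC in A375 (log2 change -1.21, SE 0.10, edgeR adjusted p = 8.74e-05). HOXB3 measured 1.06 and 1.25 FPKM in SK-MEL-28 and 3.79 and 4.39 FPKM in A375 (log2 change -1.66, SE 0.12). HOXB4, known for expanding blood stem cells, measured 6.18 and 6.73 FPKM in SK-MEL-28 and 12.0 and 12.9 FPKM in A375 (log2 change -0.78, SE 0.11). HOXB5 had a log2 change of -1.33 (SE 0.18), and these 4 adjacent paralog groups all passed the test as lower with no overlap between the lines.

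From HOXB6 onwards the genes shared no direction. HOXB6 measured 5.13 FPKM with siLINC01291 and 4.51 with siNC in SK-MEL-28 and 5.04 FPKM with siLINC01291 and 5.18 with siNC in A375, and HOXB9 measured 8.50 and 5.96 FPKM in SK-MEL-28 and 6.83 and 8.31 FPKM in A375. Both overlapped between the lines, and their log2 changes of 0.08 (SE 0.13) and 0.09 (SE 0.20) were not called (edgeR adjusted p = 0.622 and 0.715) and become negative with library totals alone (-0.0908 and -0.0829). HOXB7, reported in melanoma as an activator of the growth factor gene FGF2, was high in both lines at 14.8 and 13.7 FPKM in SK-MEL-28 and 13.0 and 11.9 FPKM in A375. Its log2 change of 0.36 (SE 0.11, edgeR adjusted p = 0.0238) ended without any 1 of the 4 libraries (0.0802 to 0.217) and with library totals alone (log2 change 0.20, adjusted p = 0.156). HOXB8 measured 1.24 and 0.790 FPKM in SK-MEL-28 and 4.85 and 4.06 FPKM in A375 (log2 change -1.98, SE 0.18, edgeR adjusted p = 0.000108). HOXB13, best known from the prostate, measured 3.28 and 2.11 FPKM in SK-MEL-28 and 4.36 and 3.57 FPKM in A375; its log2 change of -0.41 (SE 0.15, edgeR adjusted p = 0.0460) was -0.12 without the SK-MEL-28 siNC library, -0.26 without A375 siLINC01291 and -0.51 without A375 siNC, with no call in these 3 cases, and -0.73 without the SK-MEL-28 siLINC01291 library. The call of HOXB13 also ended with all 4 libraries and siRNA left out of the model (edgeR adjusted p = 0.209). HOXB8 and HOXB13 were without overlap between the lines in FPKM. On the TMM scale of the test, HOXB13 did overlap, with SK-MEL-28 siLINC01291 slightly above A375 siNC.

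Of the 10 non-coding members, 5 reached 1 FPKM in any library, and all 5 were called lower in SK-MEL-28, where 36.3% of all genes tested were. Of the 5, HOXC13-AS, HOXC-AS2 and HOXC-AS1 entered the test mainly through A375 and so had to differ in this direction. HOXC13-AS measured 0.169 FPKM with siLINC01291 and 0.0964 with siNC in SK-MEL-28 and 1.74 FPKM with siLINC01291 and 1.19 with siNC in A375 (log2 change -3.27, SE 0.34), HOXC-AS2 had a log2 change of -2.88 (SE 0.28) and HOXC-AS1 of -1.93 (SE 0.33). HOXB-AS1 and HOXB-AS3 had smaller log2 changes of -0.60 (SE 0.21) and -0.61 (SE 0.15). Adjusted p-values of the 5 by edgeR ran between 0.000157 and 0.0370. The calls of HOXB-AS1 and HOXB-AS3 ended without any 1 of the 4 libraries (edgeR adjusted p = 0.0505 to 0.202). By span, HOXC13-AS overlaps HOXC13, HOXC-AS1 and HOXC-AS2 overlap HOXC9, and HOXB-AS1 and HOXB-AS3 overlap HOXB3. HOXB-AS1 also overlaps HOXB2, and HOXB-AS3 spans HOXB4 and HOXB5. All these coding genes were called lower. HOXC-AS1 and HOXC-AS2 also lie within the span of HOXC6, and HOXB-AS3 spans HOXB6, and neither of these coding genes was called. Exons of other listed genes share 7.36% of the exonic bases of HOXC-AS2, 12.2% of those of HOXC13-AS, 29.6% of those of HOXB-AS1 and 30.1% of those of HOXB-AS3. Since no source used here says whether strand was used in counting, the origin of reads in these shared stretches is uncertain. HOXC-AS1 shares no exonic base with another annotated gene. HOXD-AS2, under 1 FPKM, had 44 and 51 counts in SK-MEL-28 and 17 and 12 in A375, 3.92-fold higher in SK-MEL-28 (exact binomial interval 2.56 to 6.17). HOTAIRM1, HOXA-AS2 and HOXB-AS2 ranged over 0.241 to 0.816 FPKM.

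**Figure D2:**
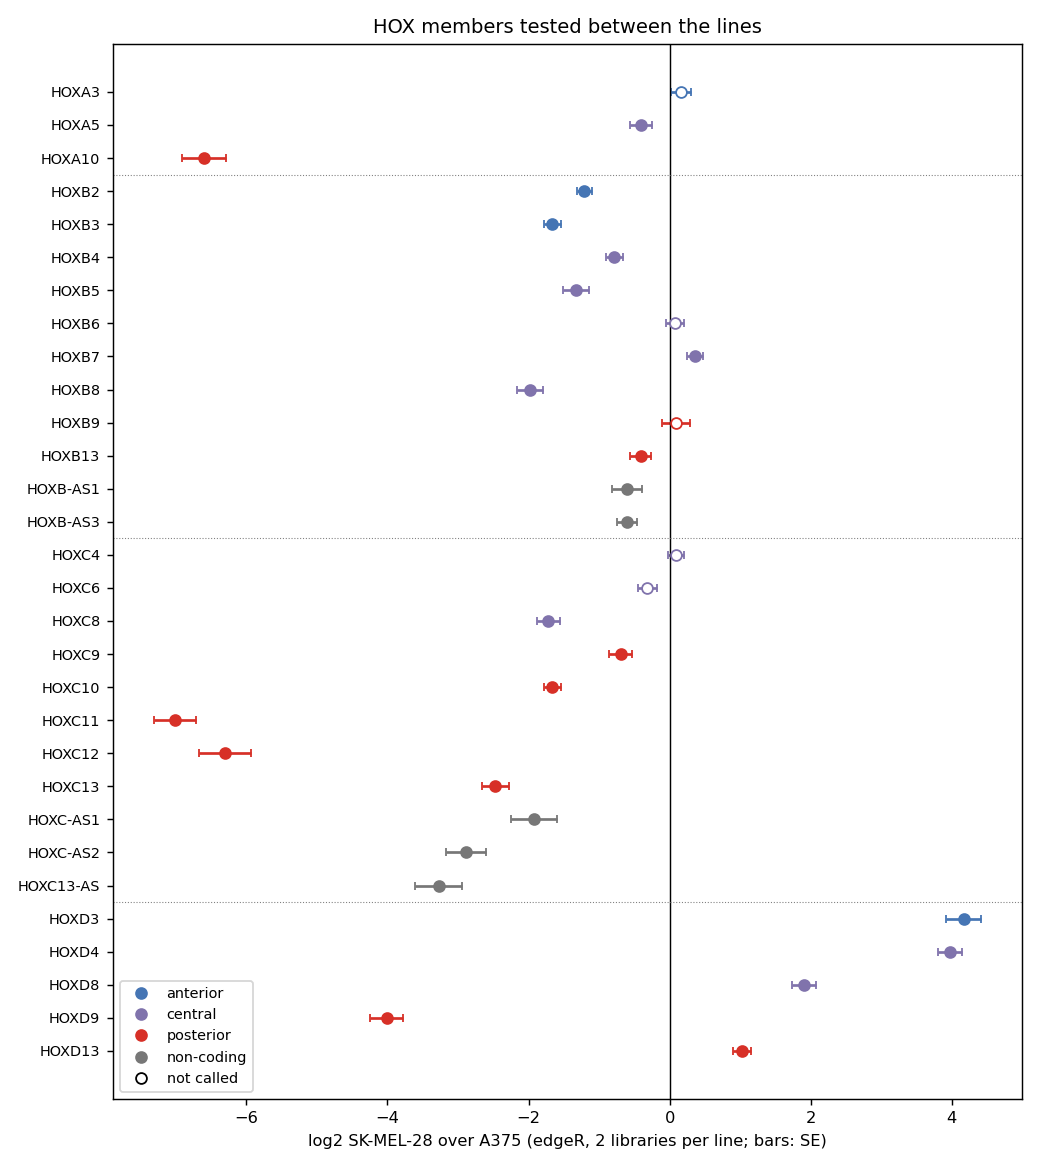
Log2 change of SK-MEL-28 over A375 (edgeR, 2 libraries per line, bars are SE) for 30 of the 31 tested HOX members, by cluster from HOXA at the top to HOXD at the bottom; colours give the positional class and open points did not pass the test. HOXC11 at -7.01 and HOXD3 at 4.17 mark the ends of the range.

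In all, 31 members had at least 1 FPKM in at least 2 libraries and were tested within the fit over 13501 genes. SK-MEL-28 was higher for 6 of the 31, where 36.1% of all genes tested were called higher, and lower for 20, where 36.3% of all genes were called lower. With a change of at least 4-fold added to the call, 2 members were higher (7.96% of all genes) and 7 lower (8.90% of all genes): HOXD3 and HOXD4 on the high side, and HOXC11, HOXA10, HOXC12, HOXD9, HOXC13-AS, HOXC-AS2 and HOXC13 on the low side. The median log2 change of the 31 was -0.69, against -0.02 over all genes tested. These counts are a description, since 8 of the 31 entered the test mainly through A375 and 2 mainly through SK-MEL-28 and so had to differ, and the 11 untested members were under 1 FPKM in every library (the highest was HOXA6 at 0.902 FPKM). Of the calls, 18 held under each of the 12 alternative settings that tested them; 8 did not, among them those of HOXA5, HOXB7, HOXB13, HOXC9, HOXB-AS1, HOXB-AS3 and HOXC-AS1. On the log2(FPKM + 1) scale, which understates the change of low genes, limma gave -2.03 for HOXC11, -1.80 for HOXA10, -1.73 for HOXC12, -2.03 for HOXD9 and 1.40 for HOXD3. By positional class, 8 of 10 tested posterior genes were lower and 1 was higher (HOXD13), against 5 lower and 3 higher of 11 central genes and 2 lower and 2 higher of 5 anterior genes. These counts are a description too. The posterior HOXA10, HOXC11, HOXC12 and HOXD9 and the central HOXB8 entered the test mainly through A375. The anterior HOXD3 and the central HOXD4 entered mainly through SK-MEL-28. The posterior HOXA11 (lower in SK-MEL-28 by summed counts) and HOXA13 (higher) were not tested.

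Summed over the clusters, the paralog groups differed most at groups 10 to 12. Group 10 (HOXA10 and HOXC10) summed to 4.69 FPKM with siLINC01291 and 3.42 with siNC in SK-MEL-28 and 18.1 FPKM with siLINC01291 and 15.6 with siNC in A375. Group 11 (HOXA11 and HOXC11) summed to 0.0590 and 0.122 FPKM in SK-MEL-28 and 3.63 and 3.97 FPKM in A375, and group 12, here HOXC12 alone, to 0.0104 and 0.0415 FPKM in SK-MEL-28 and 2.53 and 2.29 FPKM in A375. The terminal group 13 was present in both lines, at 12.4 and 12.0 FPKM in SK-MEL-28 and 18.5 and 17.4 FPKM in A375, with HOXD13 leading in SK-MEL-28 and HOXC13 in A375. SK-MEL-28 thus held counts of groups 9, 10 and 13 but hardly any of groups 11 and 12, whereas A375 held at least 2 FPKM in every group from 2 to 13. Group 4 was the only group with a sum higher in SK-MEL-28 by more than 4 FPKM (26.6 and 29.6 FPKM, against 20.5 and 21.8 FPKM in A375), carried by HOXD4.

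Genes that work with or upstream of HOX genes were also compared between the lines. Of all genes tested, 36.1% were called higher and 36.3% lower in SK-MEL-28, so the counts of calls per list are a description. Of 9 TALE cofactors, 8 are listed and 6 were tested: PBX4 (log2 change 1.70, SE 0.17), PKNOX1 (0.46, SE 0.13) and PKNOX2 (2.87, SE 0.26) were called higher in SK-MEL-28, and PBX3 (-0.76, SE 0.16) and MEIS2 (-0.66, SE 0.11) lower. PBX2 was at 10.8 FPKM with siLINC01291 and 7.81 with siNC in SK-MEL-28 and 13.2 FPKM with siLINC01291 and 9.21 with siNC in A375 and was not called (log2 change -0.10, SE 0.10). MEIS1 ranged over 0.413 to 0.568 FPKM and MEIS3 over 0.212 to 1.05 FPKM. Cofactor genes therefore moved both ways, with a median log2 change of 0.18 over the 6.

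Of 30 Polycomb genes, 8 were called higher (36.1% of all genes tested) and 12 lower (36.3%) in SK-MEL-28, with a median log2 change of -0.17. Among the largest changes were those of CBX7 (1.19), RYBP (1.13), CBX2 (-1.09), EED (-1.03), which codes for a core subunit of the H3K27 methyltransferase complex, and PHC2 (-1.01). CBX7 and CBX2 are alternative chromodomain subunits that read the methyl mark, and they did not share a direction. CBX7 was under 1 FPKM in A375, so it entered the test through SK-MEL-28 alone and had to come out higher. EED measured 4.15 FPKM with siLINC01291 and 4.70 with siNC in SK-MEL-28 and 9.85 FPKM with siLINC01291 and 10.4 with siNC in A375. Of 21 genes listed under Trithorax, 3 were called higher and 17 lower, with a median of -0.59. This list also holds AFF1, AFF4, MLLT1, MLLT3 and DOT1L, which are not core Trithorax genes. KMT2A, the H3K4 methyltransferase best known as a maintainer of HOX expression, measured 2.02 and 2.13 FPKM in SK-MEL-28 and 5.65 and 5.39 FPKM in A375 (log2 change -1.24, SE 0.09, edgeR adjusted p = 4.07e-05). Its partner genes HCFC1 (-1.02), PSIP1 (-0.88) and WDR5 (-0.85) and the methyltransferase gene ASH1L (-0.84) were also called lower, and AFF1 (1.16) was called higher. The median over all genes tested was -0.02.

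Of 22 upstream factors, mainly of retinoic acid signalling, 12 were tested, with a median log2 change of -0.77. Of these, 2 were called higher (36.1% of all genes tested) and 9 lower (36.3%). ALDH1A1, which codes for an enzyme that makes retinoic acid, measured 19.5 FPKM with siLINC01291 and 18.1 with siNC in SK-MEL-28 and 0.0662 FPKM with siLINC01291 and 0.0682 with siNC in A375 (log2 change 8.26, SE 0.19, edgeR adjusted p = 7.21e-07). ALDH1A3, whose product has the same activity, measured 7.65 and 11.1 FPKM in SK-MEL-28 and 34.9 and 47.6 FPKM in A375 (log2 change -1.98, SE 0.09). The retinoid receptor gene RXRG was higher in SK-MEL-28 (5.62, SE 0.26), and CYP26B1, whose product degrades retinoic acid, was lower (-4.14, SE 0.25). CRABP2, which codes for a retinoic acid binding protein, and GDF11, a ligand that acts on posterior HOX genes in mouse embryos, had log2 changes of -1.98 (SE 0.35) and -1.46 (SE 0.12). ALDH1A1 and RXRG entered the test through SK-MEL-28 alone and so had to come out higher. CYP26B1 and CRABP2 entered it through A375 alone and so had to come out lower. The genes of retinoid enzymes thus differed in both directions. Of the receptor genes tested, RXRG alone was called higher. RARA (-0.81), RARG (-0.50), RXRA (-0.90) and RXRB (-0.38) were called lower.

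**Figure D3:**
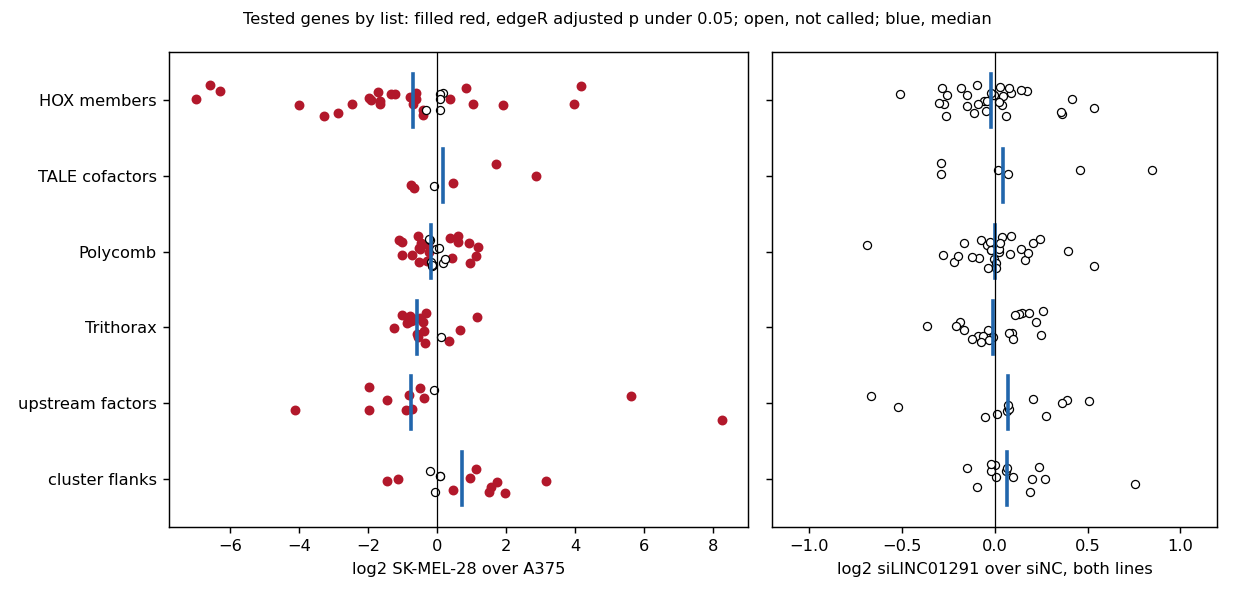
Log2 change of SK-MEL-28 over A375 (left) and of siLINC01291 over siNC over both lines (right) for each tested gene of the HOX members and of 5 related lists; red points passed edgeR's test, open points did not, and the blue bar is the median. Between the lines the medians ran between -0.77 (upstream factors) and 0.71 (cluster flanks), and no point is red on the right.

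Genes beside the clusters were set against the clusters themselves. Of 15 listed flanking genes, 14 were tested, with a median log2 change of 0.71. In SK-MEL-28, 8 were called higher (36.1% of all genes tested) and 2 lower (36.3%). HAGLR, a non-coding gene of the HOXD cluster whose name the rule does not take, measured 15.6 FPKM with siLINC01291 and 13.7 with siNC in SK-MEL-28 and 2.01 FPKM with siLINC01291 and 1.64 with siNC in A375 (log2 change 3.17, SE 0.11, edgeR adjusted p = 2.04e-06), and MTX2 (1.51) and LNPK (1.75) beside that cluster were also called higher. SNX10 (1.98) and SKAP2 (1.57) beside the HOXA cluster were called higher, although HOXA10 was called lower, and CBX5 (-1.44) beside the HOXC cluster was called lower. Over 5 Mb to either side without the HOX members, the median log2 change was 1.10 at HOXD (46 genes), 0.85 at HOXA (41 genes), 0.01 at HOXB (104 genes) and -0.43 at HOXC (147 genes), against 0.52, 0.20, -0.08 and -0.30 over the whole of chromosomes 2, 7, 17 and 12. The direction of the HOXC and HOXD sums was that of their surroundings. The HOXA sum was lower in SK-MEL-28 (11.7 and 12.3 FPKM, against 16.2 and 15.2 FPKM in A375), beside surroundings that were higher. The HOXB sum was also lower (48.1 and 44.4 FPKM, against 71.6 and 73.7 FPKM), beside nearly level surroundings. Among single genes, HOXA10 and HOXD9 did not share the direction of their surroundings. Nor did HOXA5, whose call as lower ended in several alternative settings. The part of the surroundings in the HOX differences was not tested.

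For siLINC01291 against siNC, no HOX member passed the test. Over both lines, with the line as a block, 0 of 31 members were called risen (0.222% of all genes tested) and 0 fallen (0.674%) by edgeR, and 0 were called with DESeq2 or limma. At an unadjusted p under 0.05 there were 2 members, where 16.9% of all genes had such a p. These were HOXC10 (log2 change of siLINC01291 over siNC 0.35, SE 0.12, edgeR adjusted p = 0.204) and HOXB13 (0.42, SE 0.15, edgeR adjusted p = 0.243). Joint log2 changes of the 31 ran between -0.51 (HOXA10) and 0.53 (HOXC13-AS) with a median of -0.02, against 0.01 over all genes tested, and their SE of 0.10 to 0.30 sets the size of change that could pass. Of the 83 tested genes of the 5 related lists, 0 were called by edgeR for the siRNA, and 14 had an unadjusted p under 0.05.

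Within a line there was 1 library per siRNA, so ratios carry counting error only and no test. Of 24 members with at least 1 FPKM in either SK-MEL-28 library, 0 changed by 2-fold or more (3.27% of all genes expressed there), and of 30 in A375, 0 did (2.01%). In SK-MEL-28 the largest log2 ratios were those of HOXC13 (-0.73; 84 counts with siLINC01291 against 138 with siNC) and HOXB8 (0.61; 88 against 56). In A375 they were those of HOXA10 (-0.55; 254 counts with siLINC01291 against 351 with siNC) and HOXC13-AS (0.48; 78 against 52). The exact binomial interval of the ratio lay above 1 for 5 and below 1 for 6 members in SK-MEL-28, and above 1 for 3 and below 1 for 6 in A375. The matching share over all expressed genes was not taken, so these counts and the members named from them are a description only. HOXC10 and HOXB13 lay above 1 in both lines: HOXC10 had 325 counts with siLINC01291 against 238 with siNC in SK-MEL-28 (ratio 1.34, interval 1.13 to 1.59) and 1207 against 925 in A375 (1.23, 1.13 to 1.34). HOXB2 and HOXB3 lay below 1 in both lines, with HOXB3 at a ratio of 0.832 (0.695 to 0.995) in SK-MEL-28 and 0.841 (0.768 to 0.921) in A375. HOXC5, under 1 FPKM, had 33 counts with siLINC01291 against 12 with siNC in SK-MEL-28, a ratio of 2.70 (1.36 to 5.75), and 31 against 26 in A375.

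**Figure D4:**
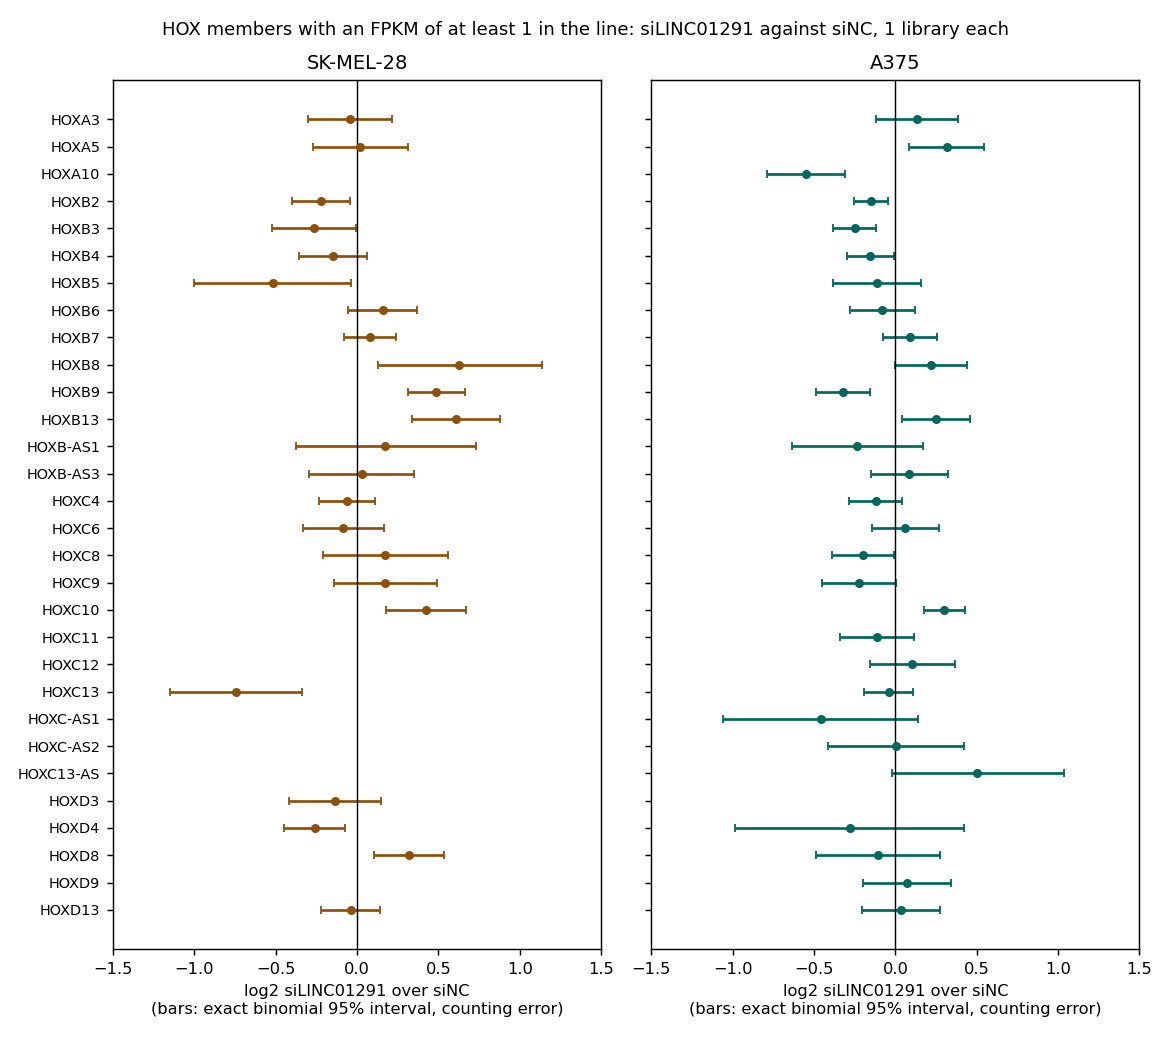
Log2 ratio of siLINC01291 over siNC from scaled counts in SK-MEL-28 (left) and A375 (right) for HOX members with at least 1 FPKM in the line, 1 of them not drawn; bars are exact binomial 95% intervals that cover counting error only, with 1 library per point and siRNA. HOXB9 is the member with intervals on opposite sides of 0 in the 2 lines.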

How the data were processed

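Polyadenylated RNA of 4 libraries was sequenced on an Illumina instrument. Per the labels' protocols, the authors cleaned reads with fastp, which also removed duplicates, discarded ribosomal RNA, aligned with HISAT2, assembled transcripts with StringTie and counted whole reads per gene with HTSeq, and the counts were deposited without normalisation. The deposited FPKM are the authors' CPM divided by a length per gene, and the deposited CPM and TPM, per the file headers, were scaled by the authors per library; TPM were used in an alternative only and CPM in no comparison. The submitters' processing notes give hg19 as the build and list edgeR and DESeq2 with no stated role; the annotation counted and the strand setting are not given in the sources used here.

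Library totals ranged over 29351240 to 31815336 counts. Genes with at least 1 FPKM in at least 2 libraries (13501) were fitted with edgeR 4.0.16 (R 4.3.3) by the quasi-likelihood test on counts with TMM factors and the terms line and siRNA, which leaves 1 residual degree of freedom, with Benjamini-Hochberg adjustment and a threshold of 0.05. The interaction of line and siRNA leaves none and was not tested. Libraries were paired by cell line. Log2 ratios within a line used TMM factors and a prior count of 2, and exact binomial 95% intervals cover counting error only, also because reads carry no molecular identifiers. Alternatives were other scalings and filters, DESeq2 1.42.0, limma 3.58.1 on log2(FPKM + 1) and log2(FPKM + 0.1), no block and leaving out each library. Fits with a library left out also dropped the siRNA term, so a call lost there cannot be put down to the library alone. The procedure was tested on simulated data.

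Members were named in full by rule where at least 1 library reached 1 FPKM. Of the related lists, all TALE cofactors and up to 6 tested genes of largest change were named. The other tested retinoid receptor genes and the non-core genes of the Trithorax list were named too. Values of 1 member and of 1 Polycomb gene are not reported here, though the counts and sums include them. The members and lists were chosen with earlier results of these data known. Positions were taken from GENCODE 29 (GRCh38) by Ensembl ID and promoter sequences from RefSeq (GRCh38.p14); 13 members had an entry.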

Additional observations from a re-analysis of the deposited data

Results flagged for a closer look

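HOXB9, a posterior gene of the HOXB cluster, moved in opposite directions in the lines. It had 647 counts with siLINC01291 against 454 with siNC in SK-MEL-28, a log2 ratio of 0.48 (ratio 1.40, exact binomial interval 1.24 to 1.58). In A375 it had 564 counts with siLINC01291 against 666 with siNC, a log2 ratio of -0.32 (ratio 0.799, interval 0.713 to 0.895). Each library stands alone in its group, the intervals cover counting error only, and the difference between the lines was not tested.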

How the results depend on the processing

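The count of 26 members called between the lines ranged over 19 to 29 in the 12 alternatives, with 19 under DESeq2, 29 with no filter on low values, 24 with no replicate block (siRNA left out of the model) and 19 to 22 when a library was left out. Of the 26, 18 were called in every alternative that tested them. Fits with a library left out also left siRNA out of the model. Library totals alone move the median log2 line change of all genes to -0.19, against -0.02 with TMM. With them and with limma on log2(FPKM + 1) and log2(FPKM + 0.1), uncalled members changed sign: HOXA3 to -0.00429, -0.000516 and -1.95e-05, HOXB6 to -0.0908, -0.0728 and -0.0862, HOXB9 to -0.0829, -0.0711 and -0.0815 and HOXC4 to -0.0807, -0.0674 and -0.0760. With a library left out, HOXB6 ranged over -0.00298 (without SK-MEL-28 siLINC01291) to 0.156 and HOXB9 over -0.170 (the same) to 0.316, with -0.0557 without A375 siLINC01291. HOXC6 became a call with these 3 settings (adjusted p = 0.0155 by edgeR, 0.0170 and 0.0252 by limma), HOXC-AS1 lost its call with DESeq2 alone (0.0824), and HOXC9 with DESeq2 (0.0905) and without SK-MEL-28 siNC (0.0577) or A375 siNC (0.103).

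For the siRNA, 0 members were called in all 9 fits, including 0 with no replicate block, where the pairing by line is dropped. Calls over all genes varied: 30 rose and 91 fell with edgeR, 99 and 203 with DESeq2, 146 and 238 with no filter and 0 and 0 with limma or no block. No library could be left out of that fit, since 0 residual degrees of freedom remain. At a threshold of 5 FPKM, 7 members were expressed in SK-MEL-28 and 11 in A375, against 23 and 29 at 1 FPKM; a single library gave 23 or 24 in SK-MEL-28 and 29 or 30 in A375. Depth limits HOXA10, HOXC11, HOXC12 and HOTAIR in SK-MEL-28, at 0 to 4 counts per library.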
